A study of Mus musculus with 18 samples.

Results

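The genes described here handle iron in the epithelium of the small intestine, and they were followed in mouse small intestinal organoids treated with an adrenergic agonist. All 9 genes, Slc11a2, Cybrd1, Slc40a1, Heph, Tfrc, Fth1, Ftl1, Aco1 and Ireb2, were found by symbol among the 55487 genes of the deposited counts. All 9 were among the 15247 genes that passed the filter on low counts. Organoids are gel cultures of the intestinal epithelium, in which crypt stem cells divide and give rise to absorbing and secretory cells. They came from wild-type female C57BL/6 mice, with mouse numbers 1 to 5, and were passaged 4 times before treatment. Norepinephrine, the transmitter of sympathetic nerves, was given at 1 μM for 4 days to 5 samples, and its vehicle HCl to 4. UK14304, a synthetic agonist of the α2-adrenergic receptor, was given at 1 μM for 4 days to 5 samples, and its vehicle DMSO to 4. Mice 1 to 4 gave a sample to each of the 4 groups, and mouse 5 gave only the agonist samples. The m numbers of the labels are read here as mice, and a mouse and the line of organoids grown from it cannot be told apart.

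Dietary iron enters the absorbing cell of the gut, the enterocyte, after Cybrd1 (a ferric reductase of the apical membrane) has reduced it and Slc11a2 (the divalent metal transporter DMT1) has carried it in. Inside the cell it is stored in ferritin, which is built from heavy chains (Fth1) and light chains (Ftl1), or leaves towards the blood through Slc40a1 (ferroportin, the known iron exporter of mammalian cells) with the help of the ferroxidase hephaestin (Heph). Tfrc, the transferrin receptor, brings in iron bound to transferrin, mainly for the needs of dividing cells. Aco1 and Ireb2 encode the iron regulatory proteins, which bind hairpins called iron-responsive elements in the mRNAs of several of these genes when the cell is short of iron. Binding in the 5′ untranslated region blocks translation, and binding in the 3′ untranslated region of Tfrc protects the mRNA from decay. In the enterocyte the transcription factor HIF-2α, encoded by Epas1, is known to raise transcription of Slc40a1, Slc11a2 and Cybrd1.

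Because the place of these hairpins in an mRNA separates translational control from control of the mRNA level, those found are shown with their loops in capitals. The loop CAGTGN was searched on the transcribed strand of the untranslated regions of GENCODE M21 transcripts (GRCm38), between 5 bases on each side that pair with each other, G with T included, and after an unpaired C next to the upper stem. The 27 bases printed are this hairpin with 5 further bases on each side, 5′ to 3′ on the strand of the gene. In the 5′ untranslated regions 3 of the 9 genes held a match, as did 0.138% of 22527 coding genes.
Fth1 (chr19:9982733-9982759, plus strand): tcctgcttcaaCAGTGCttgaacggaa
Ftl1 (chr7:45459780-45459806, minus strand): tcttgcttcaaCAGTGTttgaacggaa
Slc40a1 (chr1:45925466-45925492, minus strand): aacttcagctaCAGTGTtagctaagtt
The ferritin hairpins share their stem, and that of Slc40a1 has another stem around the loop it shares with Ftl1. In 3′ untranslated regions 1 of the 9 genes, Tfrc, held a match, as did 0.639% of coding genes, and Tfrc held 4.
Tfrc (chr16:32631220-32631246, plus strand): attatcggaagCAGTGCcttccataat
Tfrc (chr16:32631599-32631625, plus strand): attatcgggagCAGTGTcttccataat
Tfrc (chr16:32631664-32631690, plus strand): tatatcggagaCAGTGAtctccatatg
Tfrc (chr16:32631711-32631737, plus strand): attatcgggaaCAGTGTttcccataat
The hairpin was present in 1 of 4 annotated coding transcripts of Slc40a1, in 4 of 5 of Fth1, in 2 of 3 of Ftl1 and in 1 of 3 of Tfrc, and counts per gene do not separate these transcripts. No match was found with these letters in the other 5 genes, and variant elements with another bulge were not searched. The lack of a match therefore does not place a gene, Slc11a2 among them, outside this control.

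Between genes, levels were compared per length, as RPKM, which divides the share of a library's scaled counts by the length of the gene's exons. In the 8 vehicle samples Fth1 was highest, with a median of 685 RPKM and a range from 424 to 969. Tfrc followed with a median of 77.1 RPKM (65.2 to 86.4), Aco1 with 67.7 (62.8 to 69.3), Slc11a2 with 54.8 (21 to 134), Cybrd1 with 50.7 (19.2 to 131), Heph with 27.9 (26.7 to 31.2), Ireb2 with 20.9 (19.7 to 23.6), Slc40a1 with 10.5 (2.09 to 30.2) and Ftl1 with 1.98 (1.78 to 2.54). Fth1 stood above Tfrc and Heph above Ireb2 with no overlap, while the ranges of every other pair of neighbours in this order overlapped. The wide ranges of Slc11a2, Cybrd1 and Slc40a1 gave these 3 genes no fixed place in the order.

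The value of Ftl1 cannot be read as the level of ferritin light chain mRNA. Of the windows of 50 bases in its transcripts, the read length, 58.4% also occur in transcripts of 17 other genes, and reads that fit several places were not counted. A gene on the opposite strand, Gm10252, overlaps 26.5% of its exon bases, and reads over both genes were not counted either. Ftl1 was counted only 50 to 83 times per sample, whereas Fth1 was counted 35006 to 83123 times, with 1.59% of its windows shared. For the other 7 genes the shared windows made up 4.27% at most, in Slc11a2, whose exons overlap the gene Gm5475 on the opposite strand over 6.33% of their length.

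For Slc40a1, Slc11a2, Cybrd1 and Fth1 the largest differences lay between mice. Slc40a1 (chr1:45908068-45926523), given as CPM (the TMM-scaled share of the library's counts that fall on the gene, without its length), averaged 241 ± 31.5 in mouse 2 (SD, n = 4), 97.1 ± 12.0 in mouse 4 (n = 4), 71.8 ± 11.1 in mouse 1 (n = 4), 50.7 ± 8.65 in mouse 5 (n = 2) and 17.4 ± 2.96 in mouse 3 (n = 4). No sample of mouse 2 came as low as any sample of another mouse, and no sample of mouse 3 came as high. Slc11a2 (chr15:100387898-100425072) had the same order, with 735 ± 126 CPM in mouse 2, 374 ± 59.4 in mouse 4, 271 ± 26.7 in mouse 1, 251 ± 26.8 in mouse 5 and 127 ± 18.1 in mouse 3. Cybrd1 (chr2:71117923-71142926) repeated it with 553 ± 145, 290 ± 24.8, 223 ± 21.5, 182 ± 21.6 and 95.5 ± 25.3 CPM. These are the reductase, the importer and the exporter on the path that iron takes across the enterocyte. The plot of levels by mouse and treatment shows each sample.

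**Figure D1:**
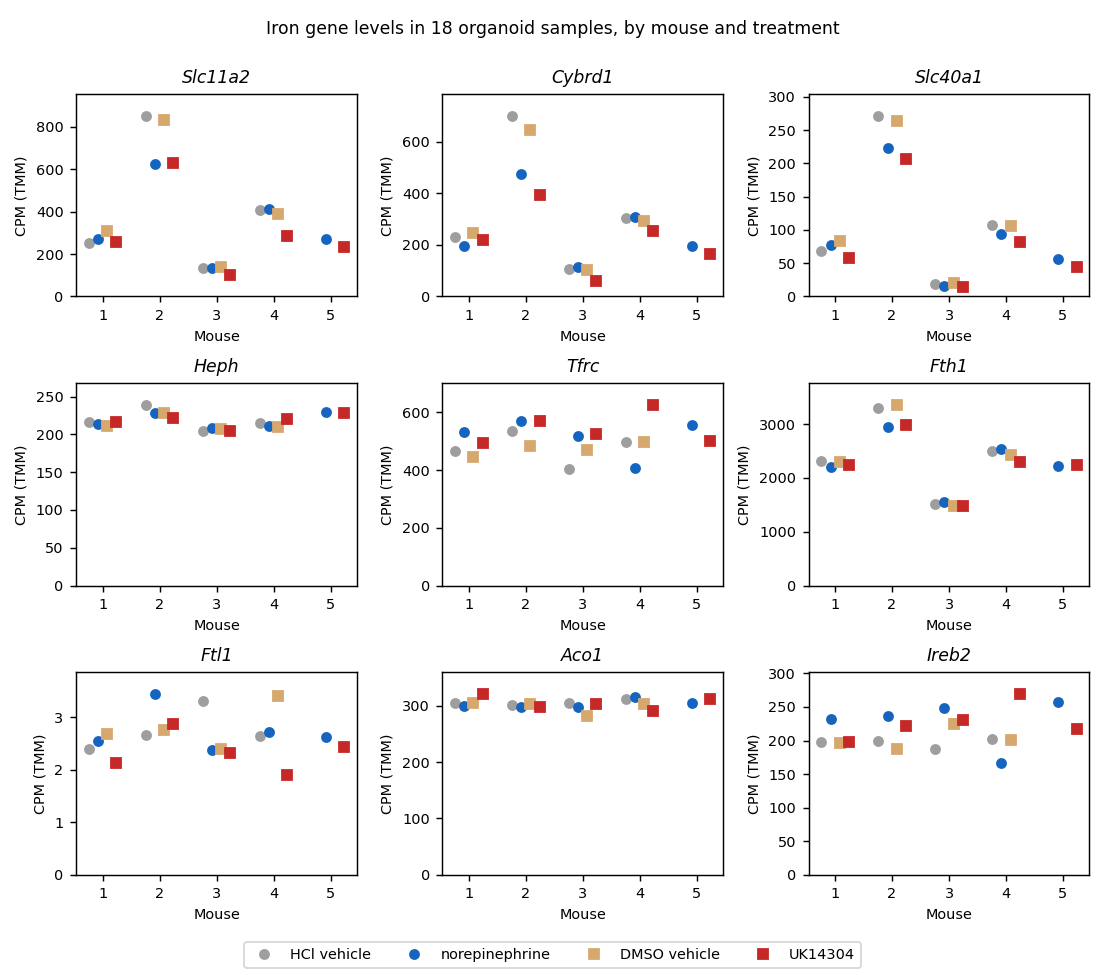
CPM (TMM-scaled, linear axis from 0) of the 9 iron genes in each of 18 samples, by mouse, with grey circles for HCl vehicle, blue circles for norepinephrine, tan squares for DMSO vehicle and red squares for UK14304. Slc11a2, Cybrd1, Slc40a1 and Fth1 are highest in mouse 2 and lowest in mouse 3, while Aco1 stays between 282 and 322 CPM.

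Ferritin heavy chain varied in the same order over a smaller range. Fth1 (chr19:9980598-9985098) averaged 3148 ± 212 CPM in mouse 2, 2443 ± 114 in mouse 4, 2264 ± 56.2 in mouse 1, 2224 ± 12.5 in mouse 5 and 1505 ± 38.3 in mouse 3. Heph (chrX:96455359-96574485) differed less, from 206 ± 1.83 CPM in mouse 3 to 230 ± 7.39 in mouse 2, with mouse 5 at 229 ± 1.23. Tfrc (chr16:32608920-32632794) had means between 480 and 540 CPM per mouse, Ireb2 (chr9:54863789-54912530) between 206 and 238, and Aco1 (chr4:40143081-40198338) between 298 and 309. In these 3 genes the samples of different mice overlapped.

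In the fit of all genes with the mouse as a term, edgeR's quasi-likelihood F test of the mouse terms called 5 of the 9 genes at an adjusted p under 0.05, where 13.8% of all 15247 genes were called (2110 genes). The adjusted p was 1.3e-16 for Slc40a1, 6.0e-11 for Fth1, 2.5e-10 for Slc11a2, 3.3e-07 for Cybrd1 and 0.017 for Heph. It was 0.70 for Tfrc, 0.78 for Ftl1, 0.85 for Aco1 and 0.94 for Ireb2. The means of mice 1 to 4, taken on the log2 scale, spanned 13.9-fold for Slc40a1, 5.82-fold for Cybrd1 and 5.75-fold for Slc11a2. They spanned 2.09-fold for Fth1 and 1.11-fold for Heph. By this range Slc40a1 ranked 20 among the 15247 genes, Cybrd1 48, Slc11a2 50 and Fth1 359, and 2.87% of all genes spanned 1 log2 unit or more. This test was chosen after the values had been seen. With only the 8 vehicle samples it again called 5 of the 9. That was 1 of 7 other settings, over which 2009 to 3701 of all genes were called. With 1 sample left out at a time the test called 4 to 6 of the 9, and 1503 to 3581 of all genes.

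**Figure D2:**
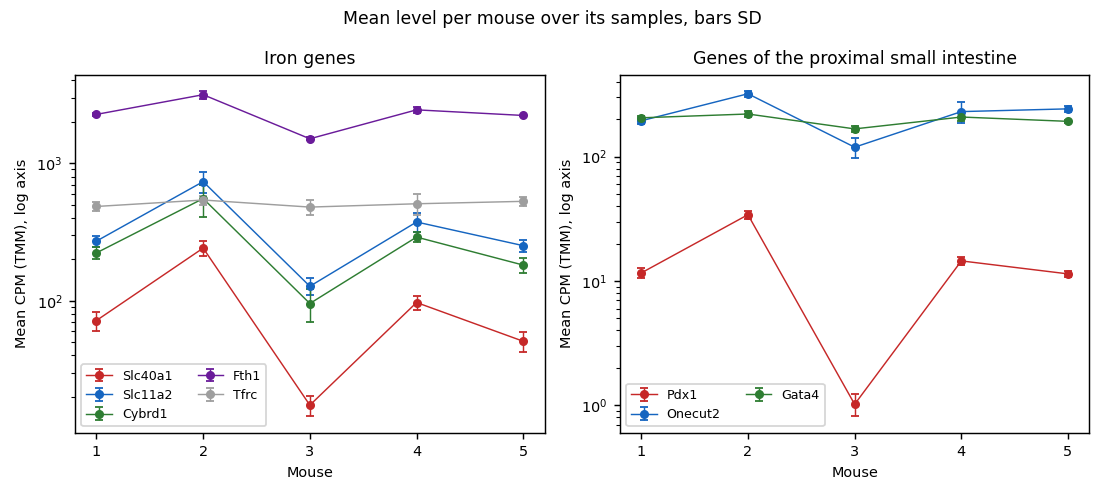
Mean CPM per mouse over its 4 samples (2 for mouse 5) on log axes, with bars of 1 SD, for 5 iron genes on the left and 3 genes of the proximal small intestine on the right. Slc40a1, Slc11a2, Cybrd1 and Fth1 peak in mouse 2 and are lowest in mouse 3, as are Pdx1, Onecut2 and Gata4, while Tfrc lies between 480 and 540 CPM.

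Genes that mark the proximal gut moved with these differences. Pdx1, a transcription factor of the duodenum and pancreas, averaged 34.1 ± 2.35 CPM in mouse 2, 14.5 ± 1.04 in mouse 4, 11.6 ± 1.06 in mouse 1, 11.4 ± 0.539 in mouse 5 and 1.02 ± 0.203 in mouse 3, which is the order of Slc40a1. Onecut2 was also highest in mouse 2 (320 ± 18.0 CPM) and lowest in mouse 3 (119 ± 22.1), as was Gata4, a factor of the proximal and middle small intestine (220 ± 11.5 and 167 ± 9.62 CPM). All 3 genes of this list passed the test between mice (edgeR). The summed CPM of the list was 555 to 579 in samples of mouse 2 and 265 to 332 in those of mouse 3, and its part in the differences of the iron genes was not tested. Fabp6 and Slc10a2, markers of the ileum, had another order, with sums of 6.05 to 20.4 CPM in mouse 3, 8.66 to 11.7 in mouse 2, 5.42 to 8.90 in mouse 5, 2.74 to 6.14 in mouse 4 and 1.91 to 4.53 in mouse 1.

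Summed markers of the cell types an organoid holds varied less than Slc40a1, Slc11a2 and Cybrd1. The 7 enterocyte markers summed to between 13800 and 17300 CPM over all 18 samples, with 15200 to 16200 in mouse 2 and 13800 to 15400 in mouse 3, although 5 of the 7 passed the test between mice. Alpi, the alkaline phosphatase of the brush border, differed most, with means of 1909 CPM in mouse 2 and 406 in mouse 3. Fabp1, Apoa1, Apoa4 and Vil1 also had higher means in mouse 2. Sis (4406 CPM in mouse 2 and 5642 in mouse 3) and Fabp2 (605 and 728) went the other way, so the sum joins opposed markers. Goblet cell markers summed to 3820 to 4210 CPM in mouse 2 and 2320 to 2820 in mouse 3, and stem cell markers to 2880 to 3620 and 4510 to 5720. Markers of cells outside the epithelium were near 0 throughout, at most 0.218 CPM in sum for erythroid cells, 0.349 for fibroblasts, 1.02 for endothelium and 4.72 for macrophages and other leukocytes. In bulk RNA a smaller share of a cell type and less RNA of a gene per cell cannot be told apart.

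Shares of variation were taken over the samples of mice 1 to 4, without mouse 5, which has no vehicle. Of the variation of Slc40a1 in log2 CPM over these samples, 98.2% lay between mice, 1.57% between the 4 treatments and 0.266% in the rest. The share between mice was 97.9% for Fth1, 95.8% for Slc11a2, 91.9% for Cybrd1 and 82.2% for Heph. It was 20.2% for Aco1, 17.9% for Ftl1, 17.1% for Tfrc and 6.13% for Ireb2, against a median of 26.0% over all tested genes. The first 5 of these genes lay far above that median and the other 4 below it. Tfrc, Ftl1 and Ireb2 varied more between treatments (30.7%, 27.0% and 25.5%) than between mice, against a median of 17.6% between treatments over all tested genes. Most of their variation lay in the rest (52%, 55% and 68%).

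**Figure D3:**
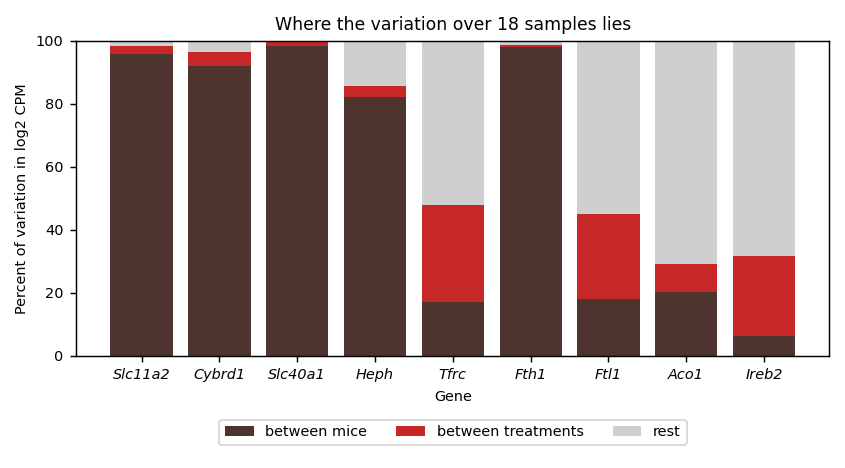
Stacked bars of the percent of variation in log2 CPM over the samples of mice 1 to 4, for the 9 iron genes. The parts lie between these mice (brown), between the 4 treatments (red) and in the rest (grey). Mouse 5 is not part of these shares, although the title names 18 samples. The brown part reaches 98.2% in Slc40a1 and 6.13% in Ireb2.

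The genes most like the 3 most variable members over the 18 samples, by Pearson's r of log2 CPM, included other members. For Slc40a1 they were Slc11a2 (r = 0.986, Spearman's rho = 0.975), the homeobox gene Meis2 (r = 0.985, rho = 0.953) and Fth1 (r = 0.982, rho = 0.942). For Slc11a2 they were Slc30a10, a manganese exporter (r = 0.990), Scarb1, a lipoprotein receptor (r = 0.986), and Slc40a1. For Cybrd1 they were Slc30a10 (r = 0.985), Slc11a2 (r = 0.985) and Kctd14 (r = 0.980). The 18 points come from 5 mice and are not independent, so these values describe the samples and carry no test.

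Of 88 other genes of iron, haem and oxygen sensing, 80 were tested and 24 passed the test between mice, where 13.8% of all tested genes were called. Of these 24, 17 had their highest mean in mouse 2 and their lowest in mouse 3. How often this order occurs among all genes called between mice was not counted, so it is not shown to be particular to these lists. From the 17, 3 are given here, chosen after their values were seen. Epas1 averaged 74.2 CPM in mouse 2, 58.6 in mouse 4, 54.3 in mouse 5, 50.2 in mouse 1 and 35.3 in mouse 3 (adjusted p = 1.5e-09, edgeR). Ncoa4, the receptor that delivers ferritin for breakdown, averaged 30.3 CPM in mouse 2 and 12.9 in mouse 3. Slc46a1, a transporter of folate and haem, averaged 47.9 and 24 CPM. None of the 17 genes of iron-sulphur cluster assembly passed the test between mice.

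With UK14304, Slc40a1 was lower than with DMSO vehicle in each mouse that gave both samples. It was 57.7 CPM with UK14304 and 83.4 with vehicle in mouse 1, 206 and 264 in mouse 2, 14.0 and 20.7 in mouse 3, and 81.3 and 106 in mouse 4. The UK14304 sample of mouse 5, which has no vehicle, had 44.6 CPM. The groups overlapped widely, since the samples of mouse 2 lay above all others and those of mouse 3 below them, while the differences within mice were alike, from -0.56 to -0.36 on the log2 scale. Without the mouse in the model the log2 fold change was -0.55 ± 0.89 (SE, adjusted p = 0.83, edgeR). With a block term for the mouse, the estimate became -0.46 ± 0.06 (0.728-fold, 95% interval 0.670 to 0.792, adjusted p = 0.00056). This call held when each of the 18 samples was left out in turn, with a highest adjusted p of 0.0064.

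Slc11a2, the importer, was lower with UK14304 in 4 of 4 mice. Its levels with UK14304 and with DMSO vehicle were 256 and 309 CPM in mouse 1, 628 and 834 in mouse 2, 101 and 139 in mouse 3, and 286 and 388 in mouse 4, and mouse 5 had 232 CPM with UK14304. The log2 fold change was -0.47 ± 0.64 (adjusted p = 0.79, edgeR) without the mouse in the model and -0.39 ± 0.08 (0.763-fold, 95% interval 0.674 to 0.865, adjusted p = 0.034) with it. That call was less firm than that of Slc40a1. It was kept in 6 of the 18 fits that left out 1 sample, namely without the samples of mouse 1 or 2 with HCl, of mouse 2, 3 or 4 with norepinephrine, or of mouse 1 with UK14304. Over the 18 fits the adjusted p ran from 0.0070 to 0.18, with log2 fold changes between -0.45 and -0.34. With the trend on GC content removed the log2 fold change was -0.37 ± 0.09 (adjusted p = 0.057), and with a term for libraries that held more ribosomal RNA it was -0.31 ± 0.08 (adjusted p = 0.15).

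Cybrd1, the reductase, was lower with UK14304 in 4 of 4 mice but by unequal amounts. Its levels with UK14304 and vehicle were 218 and 247 CPM in mouse 1, 391 and 646 in mouse 2, 58.2 and 103 in mouse 3, and 254 and 294 in mouse 4, and mouse 5 had 166 CPM. The log2 differences were -0.82 in mouse 3 and -0.72 in mouse 2, against -0.21 in mouse 4 and -0.18 in mouse 1. The log2 fold change with the block was -0.45 ± 0.13 (adjusted p = 0.15, edgeR), and it was -0.57 ± 0.64 (adjusted p = 0.74) without it. The estimate was as large as that of Slc40a1, with an interval from -0.74 to -0.16, and did not pass. With the block and no filter on low counts Cybrd1 (adjusted p = 2.1e-20, edgeR), Tfrc (0.00024) and Ireb2 (0.049) passed as well, where 1.88% of 33375 genes were called. Their log2 fold changes moved by less than 0.01, whereas their SE fell, for Cybrd1 from 0.135 to 0.045. These calls thus depend on how the fit without a filter estimates the spread.

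In all, with UK14304 and the mouse as a block, 2 of the 9 genes passed, both downwards, where 1.22% of all tested genes were called (186 genes, 159 of them lower). Without the block 0 of the 9 passed in edgeR and 0 in DESeq2, where edgeR called 0.0394% of all genes. At an unadjusted p under 0.05 that edgeR fit had 1 of the 9 (Tfrc), and 1708 of all 15247 genes. Fth1, which varied by mouse as these genes did, had a log2 fold change of -0.07 ± 0.04 with the block (adjusted p = 0.45), Ftl1 -0.27 ± 0.15 (adjusted p = 0.41), Heph 0.01 ± 0.03 and Aco1 0.03 ± 0.04. For Heph the 95% interval ran from 0.958-fold to 1.05-fold and for Aco1 from 0.966-fold to 1.07-fold. The summed proximal markers had similar ranges in both groups, 310 to 578 CPM with UK14304 and 269 to 555 with DMSO vehicle, and their list had a median log2 fold change of -0.02 with the block and 0 of 3 genes passing. Enterocyte markers had a median of -0.08 and 0 of 7 passing. They ran from -0.28 ± 0.08 for Apoa4 and -0.19 ± 0.08 for Alpi to 0.16 ± 0.09 for Sis. The 2 distal markers had a median of -0.51, with 0 of 2 passing. By gene set enrichment the paper reports a lower enterocyte signature with both agonists. Paneth cell markers were lower, 2 of 4 passing (Lyz1 at -0.31 ± 0.05 and Ang4 at -0.27 ± 0.06). The part of cell type or gut region in the lower Slc40a1 and Slc11a2 was not tested.

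**Figure D4:**
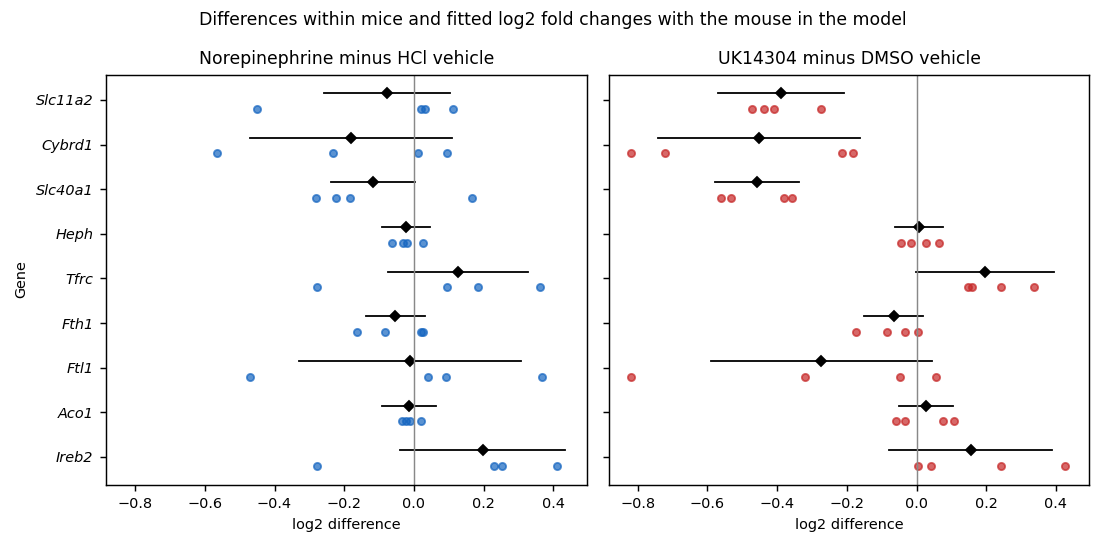
Log2 differences within each of 4 mice (dots) and the fitted log2 fold change with the mouse in the model (black diamonds, 95% intervals) for the 9 iron genes, norepinephrine against HCl vehicle on the left and UK14304 against DMSO vehicle on the right. With UK14304 all 4 dots of Slc11a2, Cybrd1 and Slc40a1 lie below 0 and all 4 of Tfrc lie above, while with norepinephrine the interval of each gene includes 0.

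Tfrc, whose mRNA carries 4 of the hairpins shown in its 3′ untranslated region, was higher with UK14304 in 4 of 4 mice, and whether it passed depended on the fit. Its levels with UK14304 and DMSO vehicle were 493.2 and 444.8 CPM in mouse 1, 572 and 483 in mouse 2, 525 and 471 in mouse 3, and 627 and 496 in mouse 4, and mouse 5 had 501 CPM. The log2 fold change with the block was 0.20 ± 0.09 (adjusted p = 0.34, edgeR). Fitted with the block on the UK14304 and DMSO samples alone it was 0.23 ± 0.04 and passed (adjusted p = 0.0049), where 3.55% of all genes were called. Tfrc has a low GC content (39.8%), as has Ireb2 (39.0%), and the libraries differed in how counts depended on GC content. The UK14304 sample of mouse 4 had the lowest slope of counts on GC content, -0.222 log2 units per 10 percentage points. That mouse also had the largest log2 differences with UK14304 in Tfrc (0.34) and Ireb2 (0.43). With the trend on GC content removed the log2 fold change of Tfrc was 0.09 ± 0.03 (adjusted p = 0.10, edgeR with the block). That of Ireb2 went from 0.16 ± 0.11 to 0.04 ± 0.03.

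With norepinephrine and the filter on low counts, 0 of the 9 genes passed against HCl vehicle, with or without the block, in edgeR and in DESeq2, where 0.105% of all genes (16) were called with the block and 0% without it. At an unadjusted p under 0.05 there was 1 of the 9 without the block (Ireb2) and 0 with it, against 943 and 1280 of all 15247 genes. Slc40a1 had 77.3 CPM with norepinephrine and 68.9 with vehicle in mouse 1, 224 and 272 in mouse 2, 16.1 and 18.8 in mouse 3, 94.1 and 107 in mouse 4, and 56.8 with norepinephrine in mouse 5. It was lower in 3 of 4 mice, and the log2 fold change with the block was -0.12 ± 0.06 (0.922-fold, 95% interval 0.848 to 1.003, adjusted p = 0.59). Slc11a2 was lower in 1 of 4 mice (mouse 2, by 0.45 on the log2 scale) and Cybrd1 in 2 of 4, and with the block their log2 fold changes were -0.08 ± 0.08 and -0.18 ± 0.13. Fth1, Heph and Aco1 lay within 0.06 of 0 on the log2 scale.

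With the block, what norepinephrine showed for Tfrc and Ireb2 depended on 1 library. Without the block neither gene passed in any of the 18 fits that left out 1 sample, with lowest adjusted p of 0.16 and 0.099 (edgeR). The norepinephrine sample of mouse 4 had the steepest positive slope of counts on GC content of all libraries (0.195 log2 units per 10 percentage points, the others from -0.222 to 0.121). Ireb2 had 167 CPM there and 203 with vehicle, whereas mice 1, 2 and 3 had 232, 237 and 249 CPM with norepinephrine and 197, 199 and 187 with vehicle. Tfrc had 409 CPM in that sample and 496 with vehicle, and in mice 1, 2 and 3 it had 532, 570 and 519 with norepinephrine and 468, 534 and 403 with vehicle. Without this sample and with the block, 2 of the 9 genes passed, both upwards, namely Ireb2 (0.35 ± 0.07, adjusted p = 0.0084, edgeR) and Tfrc (0.26 ± 0.06, adjusted p = 0.0082), where 16.7% of all genes were called (2529). With all samples, the block and the GC trend removed they stood at 0.08 ± 0.03 and 0.02 ± 0.03 (adjusted p = 0.50 and 0.88). For UK14304 the same omission added Tfrc to Slc40a1 and Slc11a2 (0.22 ± 0.05, adjusted p = 0.019), where 8.08% of all genes were called.

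The agonists were also compared through the difference between their effects, taken as norepinephrine minus UK14304. In that test, with the filter on low counts, 0 of the 9 genes and 0% of all genes passed, with and without the block, in edgeR. At an unadjusted p under 0.05 there were 0 of the 9 without the block and 2 with it, Slc40a1 and Slc11a2. Of all 15247 genes there were 230 without the block and 405 with it. Slc40a1 had a difference of 0.34 ± 0.08 on the log2 scale with the block (95% interval 0.17 to 0.51, unadjusted p = 0.00044, adjusted p = 1.00) and Slc11a2 0.31 ± 0.12 (0.06 to 0.56, unadjusted p = 0.017, adjusted p = 1.00). Within mice, Slc40a1 was lower with UK14304 than with norepinephrine in 5 of 5, by 0.12 to 0.42 on the log2 scale, and the vehicles of these samples differ. Between the vehicles, HCl and DMSO, 0 of the 9 genes and 0% of all genes passed, with and without the block. At an unadjusted p under 0.05 there were 0 of the 9 in both fits, against 277 of all 15247 genes with the block and 194 without it. The log2 difference of HCl against DMSO in Slc40a1 was -0.08 ± 0.06 with the block.

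The wider iron system was taken from 9 lists, which held systemic signals and sensors, other transporters and reductases, ferritin and IRP turnover, handling and synthesis of haem, iron-sulphur cluster assembly, other mRNAs with an iron-responsive element, the HIF pathway and HIF-responsive genes. Hepcidin (Hamp), the peptide hormone that removes ferroportin from the membrane, was among the 8 of 88 genes that were too low to be tested. Without the block 0 of the 80 tested genes passed in either comparison. With the block 0 of the 80 passed with norepinephrine. With UK14304 and the block 8 passed, all of them lower, where 1.22% of all tested genes were called (186 genes, 159 of them lower).

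In that fit those 8 belonged to oxygen sensing. Of the 8 HIF-responsive genes 6 fell with UK14304 and of the 8 genes of the HIF pathway 2, and 0 genes of the other 7 lists passed. The lists were chosen with earlier results of these data known, so these counts are no independent test of oxygen sensing. Ankrd37 fell most, from 34.2 ± 6.75 CPM with DMSO vehicle (n = 4) to 23.1 ± 6.04 with UK14304 (n = 5), a log2 fold change of -0.59 ± 0.08 with the block (adjusted p = 0.00089, edgeR). Adm, the vasodilator peptide adrenomedullin, had -0.52 ± 0.13, Pfkfb3, an activator of glycolysis, -0.37 ± 0.06, and Vegfa, the vascular growth factor, -0.27 ± 0.06. Ndrg1 had -0.25 ± 0.04 and Car9, a carbonic anhydrase, -0.21 ± 0.05. Of the prolyl hydroxylases that mark HIF for destruction, Egln3 had -0.38 ± 0.06 and Egln1 -0.16 ± 0.04. With the GC trend removed beside the block, 14 of the 80 passed with UK14304, where 4.11% of all genes were called. The call of Egln1 ended (adjusted p = 0.43) and 7 others remained. The 7 genes added were Bnip3 and Pdk1, which brought the HIF-responsive genes to 8 of 8, Trf, Ncoa4, Fbxl5 and Cpox of other lists, all lower, and Hif1a, which was higher (0.11 ± 0.03, adjusted p = 0.034). With norepinephrine 0 of the 80 passed in that fit. The HIF-responsive genes also varied by mouse, 7 of the 8 passing that test, so their calls rest on the block as those of the iron genes do. The median log2 fold change with the block was -0.30 over the HIF-responsive list, -0.11 over the HIF pathway and -0.05 over all 80 genes, against -0.00 over all tested genes. With norepinephrine the HIF-responsive list had a median of -0.13 with the block.

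Outside those calls the genes with the smallest unadjusted p in the model without the block were, for norepinephrine, Hif1a (0.21 ± 0.08, unadjusted 0.016), Iba57, of iron-sulphur cluster assembly (-0.17 ± 0.07, unadjusted 0.021), and the RNA-binding protein Pcbp3 (-0.92 ± 0.44, unadjusted 0.050), each with an adjusted p of 0.71 in edgeR's fit. For the difference between the agonists they were Uros, of haem synthesis (-0.22 ± 0.08), Bnip3 (0.27 ± 0.15) and Pcbp3 (-1.0 ± 0.62), each with an edgeR adjusted p of 1.00.

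Total counts per sample, in units of 1 M, were 21.87 to 27.85. The share of counts on a ribosomal RNA gene was 0.313 to 0.619% in 11 libraries and 1.83 to 3.06% in 7, of which 3 were DMSO, 1 HCl, 2 norepinephrine and 1 UK14304 samples. With this split as a term beside the block, Slc40a1 had a log2 fold change of -0.44 ± 0.06 with UK14304 (adjusted p = 0.0053, edgeR).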

How the data were processed

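From single reads of 50 bp, mapped with STAR 2.7.3 to GRCm38, the authors deposited raw counts per gene. The labels' processing notes name Subread 1.6.4, and the header names featureCounts 2.0.1 with Ensembl release 102. Reads over several places or genes were not counted, and strand was not used. The deposited exon lengths were used for RPKM. All 18 sample columns were matched by name, and 0 were left over.

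All samples entered a model of the 4 groups in edgeR 4.0.16 (R 4.3.3), with TMM scaling, filterByExpr by group, the robust quasi-likelihood test and Benjamini-Hochberg adjustment over 15247 genes. DESeq2 1.42.0 was an alternative. The code was tested on simulated data with known changes. The sources used here do not say how the samples of one mouse were cultured, so p-values measure the spread between these samples, which may in part be technical.

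The mouse number in the labels pairs samples. Deviations from group means correlated across genes by 0.119 to 0.431 in same-mouse pairs with norepinephrine and HCl, and by 0.155 to 0.520 with UK14304 and DMSO, so the fit with the mouse as a block is given beside the main one. log2 CPM used a prior count of 2. GC trends were removed by lowess (span 0.3), and ribosomal RNA split libraries at 1% of counts on one gene.

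The members and lists were chosen with earlier results of these data known. All members are named. From the other lists the genes passing in either fit are named or, with fewer than 3, those with the 3 smallest p. Hairpins were searched in GENCODE M21.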

Additional observations from a re-analysis of the deposited data

Results flagged for a closer look

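Within groups of 4 or 5 samples, 48 sets of values (the 9 genes, total counts, ribosomal RNA share and GC slope, in 4 groups each) were searched for 1 sample far from the others, and 5 were found, where chance gives about 1 in 20. Ireb2 had 167 CPM in the norepinephrine sample of mouse 4, the lowest of a group that reached 258, and the same sample had the highest GC slope of its group, 0.195 log2 units per 10 percentage points, with the lowest at -0.146. Aco1 had 282 CPM in the DMSO sample of mouse 3, where the group reached 305. The ribosomal RNA share was 2.02% in the HCl sample of mouse 4, with 0.346% the lowest of that group, and 1.97% in the UK14304 sample of mouse 1, with 0.340% the lowest there.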

How the results depend on the processing

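In the model of all samples and with the filter on low counts, adding the replicate block changed no call among the 9 genes other than those of Slc40a1 and Slc11a2 with UK14304. With the agonist and its own vehicle alone it also added Tfrc, and with no filter Tfrc, Cybrd1 and Ireb2 with UK14304, and 2 genes, Cybrd1 among them, with norepinephrine. It took the genes called over all to 16 with norepinephrine and 186 with UK14304, and the 9 genes called to 2. For norepinephrine, the counts over all genes were 31 with the block and the GC trend removed, 15 with its own vehicle alone, 34 in DESeq2, 16 with the ribosomal RNA split, and 153 with no filter on low counts, where 2 of the 9 genes passed. For UK14304 they were 626, 525, 272, 78 and 627, and of the 9 genes 1, 3, 2, 1 and 5 passed, with 1 when mouse 5 was left out. Without the block, UK14304 gave 20 genes with the GC trend removed, 1 with its own vehicle alone, 126 with pooled vehicles, 46 in DESeq2, 2 with the ribosomal split and 22 with no filter. The difference between the agonists with the block gave 1 gene in DESeq2 or with at least 10 counts in every sample, and 24 with no filter, 3 of them among the 9. Removing the GC trend gave 3701 genes that differed between mice. Of these, the fits with the block under another filter or without mouse 5 or a single sample, and the test between mice, were chosen after seeing the data. The cause of these shifts was not tested.

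Leaving out 1 sample at a time with the block gave 10 to 2529 genes with norepinephrine (0 to 2 of the 9), 68 to 1225 with UK14304 (1 to 3 of the 9), 0 to 1 for the difference and 1503 to 3581 between mice; the highest of each came without the norepinephrine sample of mouse 4, and the lowest UK14304 count without the DMSO sample of mouse 2. Without the block UK14304 gave 2 to 11. Log2 fold changes without the block ranged, with norepinephrine, from -0.93 to 0.53 for Slc40a1, -0.59 to 0.38 for Slc11a2 (-0.15 to 0.0086 with the block), -0.72 to 0.27 for Cybrd1, -0.24 to 0.12 for Fth1, -0.10 to 0.10 for Ftl1, -0.030 to 0.047 for Heph and -0.011 to 0.0062 for Aco1. With UK14304 they ranged from -1.25 to 0.21 for Slc40a1, -0.93 to 0.11 for Slc11a2, -0.88 to 0.022 for Cybrd1 and -0.25 to 0.12 for Fth1, each positive only without the DMSO sample of mouse 2 or, for Fth1, also without the UK14304 sample of mouse 3, and from -0.013 to 0.028 for Heph with the block. For the difference they ranged from -0.52 to 1.07 for Slc40a1, -0.36 to 0.85 for Slc11a2, -0.40 to 0.83 for Cybrd1, -0.19 to 0.20 for Fth1, -0.057 to 0.015 for Heph, -0.15 to 0.00075 for Tfrc and -0.0080 to 0.15 for Ireb2.

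Estimates near 0 changed sign elsewhere. With norepinephrine Ftl1 was 0.0020 with no filter, 0.085 with the GC trend removed, 0.075 with that and the block, 0.0084 with its own vehicle and the block, 0.018 with the ribosomal split, 0.0024 with that and the block, and 0.015 without mouse 5. Heph was 0.0045 with no filter and 0.017 with pooled vehicles, and Aco1 was 0.031, 0.024 with the block, for the GC trend and 0.014 for pooled vehicles. With UK14304 Heph was -0.012 with the GC trend removed and -0.027 with the block too. For the difference Fth1 was -0.014 with the ribosomal split and -0.012 with the block too, and Ireb2 was -0.017 without mouse 5.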
